A study of Brachypodium distachyon with 24 samples.

Results

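Leaf transcript abundance of well-watered plants was compared between Bd3-1 and Bd21, inbred accessions of Brachypodium distachyon, a small annual grass used as a model for cereals. Members were chosen by the sample labels alone: the control libraries of Bd3-1 (5 plants) and of Bd21 (3 plants), 8 of the 24 libraries in the series. The other libraries came from the same accessions in drought (6 libraries) and from F1 hybrids of Bd3-1 pollinated with Bd21 in control and in drought. Control plants of both accessions were held at 85% of the field capacity of the soil, and drought plants were brought down to 55% over 6 days from day 33 after sowing. All libraries were made from bulk youngest fully expanded leaves collected at midday. No mutant, transgene or added compound was used in any group. The series text states that some Bd3-1 control plants were harvested with the hybrids, in a later planting, but the labels do not say which. The number of calls is therefore also given for fits without each pair of Bd3-1 control libraries, and some changes of named genes in these fits are described. Each accession is an inbred line, so the plants of a group share a genotype. The p-values rest on the spread between plants within groups, estimated over all 6 groups of the 24 libraries and not over these 8 plants alone. In bulk leaves, fewer cells of a type and less RNA per cell cannot be told apart.

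Accessions of a species carry different alleles at many genes, and their transcript levels can differ even when the plants are grown alike. Such a difference can arise from a variant at the gene itself (in cis), which acts on its own allele only, or from a variant elsewhere (in trans), which reaches both alleles of a hybrid. In leaves, abscisic acid (ABA) is the hormone that closes stomata and induces protective proteins when water is short, and under ample water these genes are usually expressed at low levels. Phenylpropanoid metabolism starts from phenylalanine and supplies lignin and flavonoids, and light harvesting proteins bind chlorophyll in the photosystems.

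The Bd21 control libraries held 8236476 to 24847865 counts in total and the Bd3-1 control libraries 17418646 to 27355377. Bd21 control replicate 1 was the shallowest of the 8, with 17815 genes detected against between 22191 and 23063 in the other control libraries. Its log2 expression correlated with the other Bd21 control libraries at 0.861 to 0.862, whereas the remaining pairs within an accession correlated at 0.903 to 0.949 and pairs between accessions that left it out at 0.881 to 0.910. Results that rest on this library are therefore given with and without it. On genes whose alleles could be told apart, at least 99.8% of the counts of each control library were assigned to its own accession. These genes were chosen by the labels, with under 20% of the other allele in every parental library. The share was therefore largely fixed in advance and is no check of the labels. As a check of the tissue, the chlorophyll a-b binding protein gene Bradi4g31257 had a normalized count (the count scaled to a common library size) of 2400.1, 2837 and 2163 in Bd21 and of 1798, 2254, 2256, 3201 and 1346 in Bd3-1. It was expressed in all 8 libraries, and its levels overlapped between the accessions. Marker genes of other organs were not analysed here, since the identifiers could not be paired with names.

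Of 22629 genes tested, 569 differed between Bd3-1 and Bd21 in control at an adjusted p under 0.05 (2.51% of the genes tested; edgeR quasi-likelihood test with Benjamini-Hochberg adjustment). Of these, 189 were higher in Bd3-1 (0.835% of genes) and 380 were higher in Bd21 (1.68%). The median difference over all genes tested was 0.07 on the log2 scale. With 3 against 5 plants small differences could rarely pass the test, and most calls were large. Among the 569 genes, 506 differed by more than 1 on the log2 scale, 370 by more than 2 and 216 by more than 4, with genes absent from an accession set at their lower bound. Values of the accessions did not overlap for 534 of the called genes, compared with 10.3% of all genes tested. The median difference, with bounds, was 2.53 for genes higher in Bd3-1 and -3.44 for genes higher in Bd21. The smallest fitted difference among the calls was 0.55.

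Without Bd21 control replicate 1 the number of calls was 452, with 123 higher in Bd3-1 and 329 higher in Bd21, and 426 of the 569 genes were among them. Leaving out each of the 8 control libraries in turn left 352 genes called in every fit, 90 higher in Bd3-1 and 262 higher in Bd21. Without a pair of Bd3-1 control libraries, between 390 and 552 genes were called over the 10 pairs. The fit of the 8 control libraries alone called 430 genes, and 388 of the 569 were among them. DESeq2 called 936 genes, which included all 569. The plot of group means shows the called genes lying away from the diagonal over the whole range of expression, with a line of genes at 0 on each axis.

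**Figure D1:**
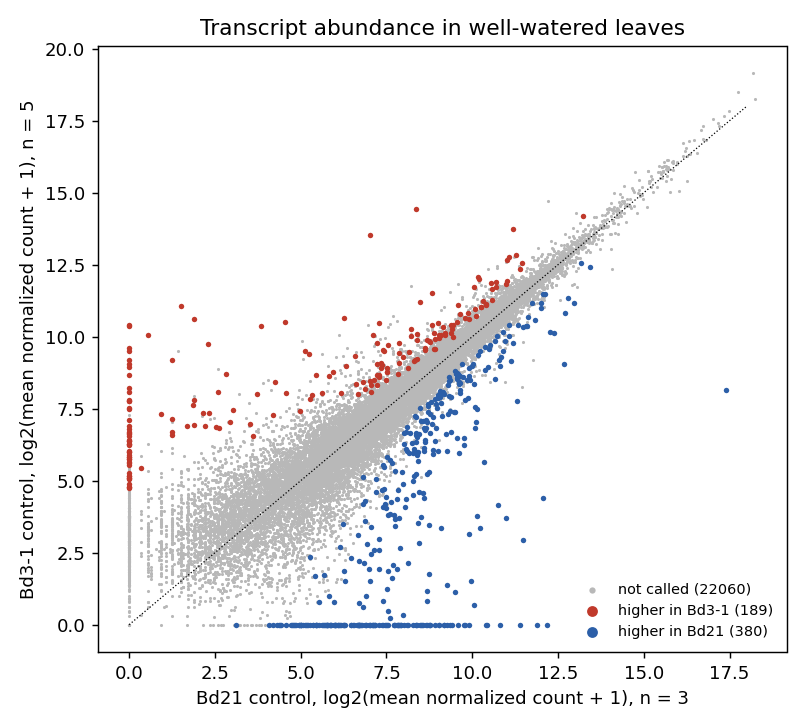
Mean normalized count of each of 22629 tested genes in Bd21 control (x axis, 3 libraries) and Bd3-1 control (y axis, 5 libraries), both as log2(mean + 1); the dotted line marks equal levels. Of the 569 called genes, 189 (red) lie above the line and 380 (blue) below it, and 49 and 136 of them sit at 0 on one axis.

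A large share of the calls were genes with reads in only one of the accessions. No reads were counted in any Bd3-1 control library for 136 of the 380 genes higher in Bd21, and no reads in any Bd21 control library for 49 of the 189 genes higher in Bd3-1. Over all genes tested, called or not, 192 had no reads in any Bd3-1 control library and 358 had none in any Bd21 control library, so that the order was the opposite of that among the calls. These totals are not comparable between the accessions. Reads had to be missing from 5 libraries in Bd3-1 but from only 3 in Bd21, which included the shallowest. The 136 genes had a mean normalized count in Bd21 between 7.65 and 4645, with a median of 103. The 49 genes had means in Bd3-1 between 25.8 and 1372, with a median of 82. These groups were not confined to low expression. In the drought libraries of the same accession, which the control comparison did not use, 126 of the 136 genes again had no reads in Bd3-1 and 36 of the 49 had none in Bd21.

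The gene with the largest difference among those higher in Bd21 was Bradi5g17127. Its normalized counts in the Bd21 control libraries were 3899, 5375 and 4659.9, and it was at 0 in all 5 Bd3-1 control libraries. Taking 3 counts per library as the floor, its mean was at least 1439-fold higher in Bd21. Bradi2g01450 followed, at 5519, 2974 and 2976 in Bd21 and at 0 in each Bd3-1 library, a level at least 1184-fold higher in Bd21. Both genes were also at 0 in the 3 Bd3-1 drought libraries. In the other direction, Bradi1g16151 had normalized counts of 1903, 1134, 1147, 1774 and 905 in Bd3-1 and of 0 in each Bd21 library, at least 288-fold higher in Bd3-1. Bradi1g49322 had 1688, 1202, 1229.7, 1202 and 1367 in Bd3-1 and 0 in Bd21, at least 281-fold higher. The functions of these 4 genes are not annotated in the sources used here. Adjusted p-values of the 4 ranged from 3.29e-12 to 1.24e-10 (edgeR), and each stayed under the threshold in every alternative fit.

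Bradi5g00063 was the called gene with the highest mean level, and it was singled out after its values had been seen. It had normalized counts of 191447, 167913 and 161942 in Bd21 and of 82, 384, 262, 294 and 379 in Bd3-1. The groups were far apart, with a difference of -9.28 on the log2 scale (SE 0.44, edgeR adjusted p 5.27e-13). This gene held between 0.783% and 0.906% of all counts in the Bd21 control libraries. In the F1 hybrids in control its normalized counts were 115784, 103659, 66209.8, 88095 and 116619, between the levels of the parents in each plant. Its function is not annotated in the sources used here, and its allele counts were equal in every library, so the alleles of the hybrid could not be separated.

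The F1 hybrids carried a copy from each parent, and their levels were compared with those of the parent that expressed the gene. For the 136 genes without reads in Bd3-1, the F1 mean in control relative to that of Bd21 had a median of -0.95 on the log2 scale (quartiles -1.33 and -0.43, pseudocount 1), and it was below Bd21 for 122 genes. For the 49 genes without reads in Bd21, the F1 mean relative to that of Bd3-1 had a median of -1.02 (quartiles -1.40 and -0.65), and it was below Bd3-1 for 48 genes. To be tested, a gene had to be counted above 0 in over 10 libraries, which most genes without reads in an accession could reach only with reads in F1 libraries, so the presence of reads in the hybrids was largely fixed by that filter, and the ratios are a description of the genes that passed it.

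Genes that the study names in connection with ABA and drought, among them a gene of unknown function, were next examined, as the study compared these accessions for their responses to soil drying. Of these 17 genes, 1 was higher in Bd3-1, none was higher in Bd21 and 16 did not pass the test. Over all genes tested 2.51% were called, so a list this short can hold few or no calls at that share. With DESeq2, 1 gene of the list was called higher in Bd3-1 and 2 were called higher in Bd21. The median difference was 0.00, and 2 of the genes were at 0 in all 8 control libraries. The gene that passed was Bradi3g39800, a gene with a role in stomatal movement. Its normalized counts were 92.4, 273 and 519 in Bd21 and 1688, 1043, 1159, 1342 and 962 in Bd3-1. Every Bd3-1 plant was above every Bd21 plant, and the log2 difference was 2.05 (SE 0.51, edgeR adjusted p 0.0258). The call was lost without Bd21 control replicate 1 (adjusted p 0.183), without Bd21 control replicate 2 (0.12) and without Bd3-1 control replicate 1 (0.0616). It was also lost without several pairs of Bd3-1 control libraries, at an adjusted p of up to 0.138.

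Among the genes of this list that did not pass, the adjusted p was closest to the threshold for Bradi4g24650 and Bradi3g50220, both with negative differences, while over the whole list 8 differences were positive and 7 negative. The homeobox transcription factor gene Bradi3g50220, an ortholog of ATHB-7, which ABA induces in Arabidopsis, had normalized counts of 652, 224 and 216 in Bd21 and of 119.6, 166, 190.4, 131 and 180.1 in Bd3-1. These values did not overlap, but the difference of -1.19 (SE 0.34) missed the threshold (edgeR adjusted p 0.0623), and the highest value was that of Bd21 control replicate 1. Over the alternative fits its difference ranged from -1.47 to -0.49, and its adjusted p from 0.0137 (DESeq2) to 0.899 (edgeR).

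Bradi4g24650, an ortholog of the rice ABA-, stress- and ripening-related gene ASR5, had 5093, 9842 and 9013 in Bd21 and 3187, 4413, 3374, 5236 and 2172 in Bd3-1. The groups overlapped only between Bd21 control replicate 1 and Bd3-1 control replicate 4, and the difference was -1.12 (SE 0.31, edgeR adjusted p 0.0547). Without Bd21 control replicate 1 it passed the test (adjusted p 0.0268), as it did without Bd3-1 control replicate 4 (0.0271). It also passed with relative log expression factors in place of TMM (0.04475) and with DESeq2 (0.00991). Bradi1g51770, a late embryogenesis abundant gene of the kind that protects cells during water loss, had 79.6, 68.4 and 80.7 in Bd21 and 1.79, 40.2, 27, 6.56 and 9 in Bd3-1. The difference of -2.18 had a standard error of 0.76 and did not pass (edgeR adjusted p 0.183), with the Bd3-1 plants spread more widely than the Bd21 plants. Without Bd3-1 control replicates 2 and 3 it passed (edgeR adjusted p 0.03015). The IAR4 ortholog Bradi1g44480 had a difference of -1.23 (SE 0.47) that did not pass either (edgeR adjusted p 0.253).

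Other steps of ABA metabolism showed no difference past the test. Bradi1g13760, which encodes a 9-cis-epoxycarotenoid dioxygenase of ABA synthesis, had 0, 16.4 and 67.4 in Bd21, and the Bd3-1 plants ranged from 14.3 to 63. Bradi3g52660, which encodes an ABA 8'-hydroxylase of ABA breakdown, had a difference of 0.10 (SE 0.28). The RAB18-type dehydrin gene Bradi3g43870 did not exceed 6.56 in any control library. The wax biosynthesis gene Bradi2g23740 varied more among Bd3-1 plants than between the accessions, at 8142 and 5644 in replicates 1 and 4 and between 906 and 1539.8 in the other 3.

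The other genes with a role given by the study that passed the test encode a peptidase and a transporter. Over all 57 such genes, 3 were higher in Bd3-1, none was higher in Bd21 and 54 did not pass, with a median difference of 0.03. Of all genes tested, 2.51% were called in either direction. Bradi5g18277, a serine-type endopeptidase gene, had normalized counts of 996, 2357 and 3703 in Bd21 and of 13578, 10137, 9578, 28387 and 6549 in Bd3-1. The groups did not overlap, and the log2 difference was 2.53 (SE 0.59, edgeR adjusted p 0.0137). The zinc transporter gene Bradi1g53680 had 1899.5, 2113 and 3419.8 in Bd21 and 7550.3, 6325, 6549.8, 12972 and 3253 in Bd3-1. Here Bd3-1 control replicate 5 fell within the range of Bd21, and the difference was 1.56 (SE 0.41, edgeR adjusted p 0.035).

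Both calls depended on single libraries. Without Bd21 control replicate 1 the adjusted p was 0.12 for the peptidase gene and 0.232 for the transporter gene. Without Bd21 control replicate 2 these were 0.0705 and 0.163. The transporter also lost its call without Bd3-1 control replicate 1 (0.0621) and without replicate 4 (0.116). With no control library left out, it lost the call in the fits of the 8 control libraries (0.1001) and of the 14 parental libraries (0.0877). In fits without pairs of Bd3-1 control libraries, the peptidase lost its call without replicate 4 and replicate 1, 2 or 3 (0.0665 to 0.114). The transporter lost its call in several of these fits (up to 0.28). The allene oxide cyclase gene Bradi1g15840, of jasmonic acid synthesis, was close within each accession. It had 1984, 2115 and 1810.2 in Bd21 and 1268, 1391, 1371, 1241 and 1179 in Bd3-1, without overlap, but the difference of -0.61 (SE 0.25) did not pass (edgeR adjusted p 0.301). In the fit of the 8 control libraries alone it passed (adjusted p 0.0445).

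**Figure D2:**
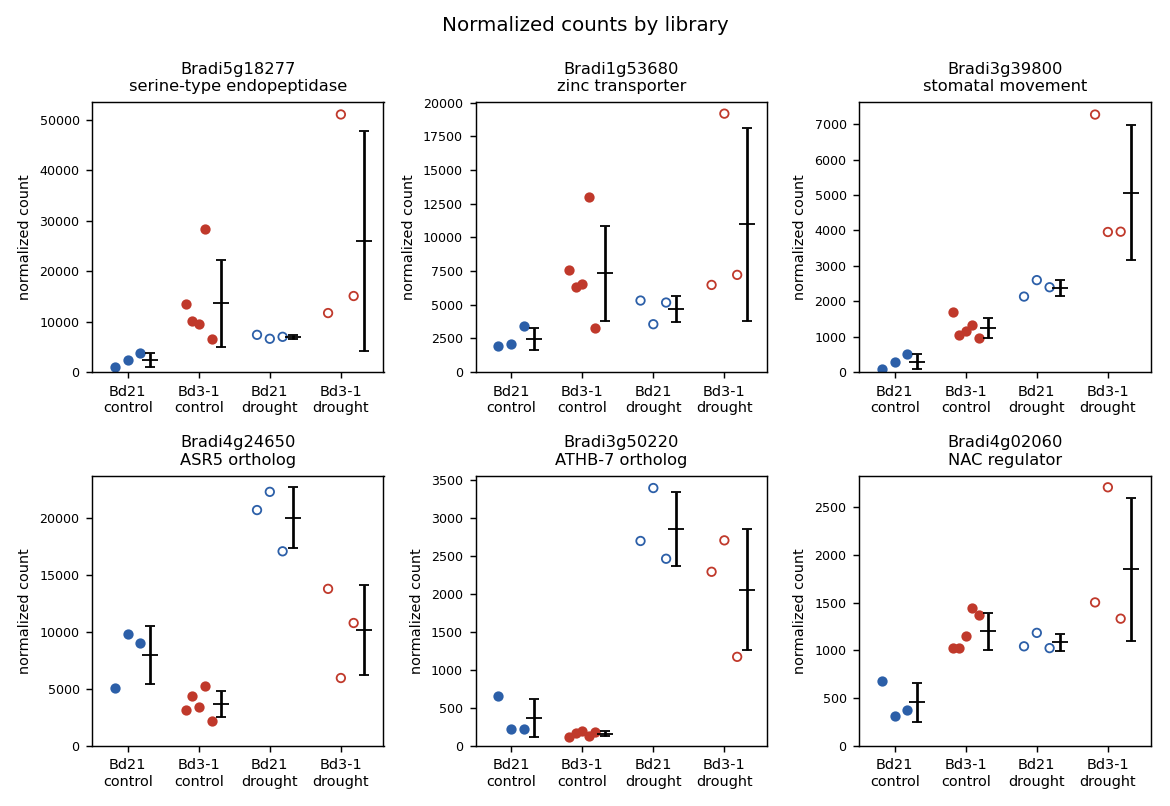
Normalized counts (y axis, from 0) of 6 genes in each library of Bd21 (blue) and Bd3-1 (red) in control (filled) and drought (open); black bars give the mean ± SD. Of these genes, Bradi5g18277, Bradi1g53680 and Bradi3g39800 passed the test in control, whereas Bradi4g24650, Bradi3g50220 and Bradi4g02060 did not.

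NAC transcription factors, several of which promote leaf senescence in grasses, were examined together with genes of chlorophyll and light stress. None of the 8 genes passed the test, which 2.51% of all genes tested passed. Of the 8 differences 7 were positive, with a median of 0.96 (0.65 without Bd3-1 control replicate 5). Bradi4g02060 had normalized counts of 683, 308 and 372 in Bd21 and of 1026, 1021, 1149, 1445 and 1369 in Bd3-1. It was the only NAC gene of the list without overlap between the accessions, at a difference of 1.41 (SE 0.44, edgeR adjusted p 0.103). In the fit of the 14 parental libraries alone it passed (adjusted p 0.0113), as it did in the fit of the 8 control libraries (0.0237). Bradi1g17480 had 1319, 1456 and 2151 in Bd21 and 2056, 3018, 3569, 3409.9 and 7444 in Bd3-1, a difference of 1.25 (SE 0.53) that did not pass (edgeR adjusted p 0.336). Its highest value was that of Bd3-1 control replicate 5, which also had the highest level of the stay-green gene Bradi4g36060, a gene of chlorophyll breakdown, at 3752 against between 411 and 1762 in the other Bd3-1 plants.

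Genes of phenylpropanoid and flavonoid synthesis, of primary metabolism and of the circadian clock contributed no calls in the fit of all 24 libraries. At the 2.51% called over all genes tested, lists this short can hold no call, so this shows no lack of differences. Of the 11 phenylpropanoid and flavonoid genes none passed, 9 had negative differences and the median was -0.41. Without Bd3-1 control replicate 3 the median was -1.01, without Bd21 control replicate 1 it was -0.63, and without Bd3-1 control replicate 1 or 4 it was -0.19. The 4-coumarate:CoA ligase gene Bradi3g52350, at a branch point of the pathway, had 2282, 2043 and 1731 in Bd21 and 612, 1666, 2549, 796 and 461 in Bd3-1. The Bd3-1 plants covered a wider range that enclosed Bd21, at a difference of -0.73 (SE 0.40, edgeR adjusted p 0.525). Without Bd3-1 control replicates 2 and 3 the difference was -1.70 and passed (edgeR adjusted p 0.00307). The flavanone 3-hydroxylase gene Bradi5g19250 was at 187, 383 and 185 in Bd21 and at 0, 109, 144, 17.5 and 39.4 in Bd3-1, without overlap, and did not pass (difference -2.03, SE 1.40, edgeR adjusted p 0.669). None of the 7 genes of primary metabolism and none of the 6 clock genes passed, with medians of 0.20 and 0.03. Neither median kept its sign when single control libraries were left out, with ranges from -0.14 to 0.32 for primary metabolism (negative without Bd3-1 control replicate 3 or 5) and from -0.23 to 0.23 for the clock genes (lowest without Bd21 control replicate 1). The LHY/CCA1 ortholog Bradi3g16515, a morning gene of the clock, had a difference of 0.63 (SE 0.61).

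Groups of co-expressed genes, called cliques in the study, were then counted as lists. These were chosen by the study on plants of the same experiment, so they are not independent evidence of a direction, and members of a clique do not vary independently. The cell wall clique stood lowest. All 30 of its genes had lower fitted levels in Bd3-1, with a median difference of -1.35 compared with 0.07 over all genes. Of them 3 were called, all higher in Bd21, a direction in which 1.68% of all genes were called. At an unadjusted p under 0.05, which 11.5% of all genes passed in either direction, 18 of the 30 genes were lower in Bd3-1, compared with 5.24% of all genes in that direction.

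Its called genes were Bradi1g59880, Bradi2g10970 and Bradi1g09460, the last of which was named after its values had been seen. Bradi1g59880 had normalized counts of 1609, 2284 and 1347 in Bd21 and of 350.0, 753, 720.3, 727 and 339 in Bd3-1 (difference -1.60, SE 0.33, edgeR adjusted p 0.00441). Bradi2g10970 had 819, 1123 and 795 in Bd21 and 226, 471, 490.1, 363 and 271 in Bd3-1 (difference -1.33, SE 0.33, edgeR adjusted p 0.0265). Bradi1g09460 had 2487, 3937 and 2609 in Bd21 and 673, 1646, 1582, 1809.9 and 876 in Bd3-1 (difference -1.19, SE 0.32, edgeR adjusted p 0.0447). Every Bd21 plant was above every Bd3-1 plant for all 3 genes. Without Bd21 control replicate 2 none kept its call, at edgeR adjusted p-values of 0.051, 0.154 and 0.251. Bradi2g10970 and Bradi1g09460 also lost it without Bd21 control replicate 1 or 3 and without Bd3-1 control replicate 1 or 5. With replicate number added to the fit they lost it too, at edgeR adjusted p-values of 0.0967 and 0.134. Bradi2g10970 lost it without Bd3-1 control replicate 4 (0.0521), and Bradi1g09460 in the fit of the 8 control libraries (0.117). In the fit of the 14 parental libraries these 2 genes were at edgeR adjusted p-values of 0.0984 and 0.154.

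Summed over the 30 genes of the cell wall clique, the normalized count was 14398, 29111 and 16694 in Bd21 and 3701, 10928, 11377, 9985 and 4402 in Bd3-1. The ranges did not overlap, and replicates 1 and 5 were the lowest of Bd3-1. The number of calls ranged from 0 to 8 over the alternative fits. It was 0 without Bd21 control replicate 2, 1 without Bd21 control replicate 3 and without Bd3-1 control replicate 1 or 5, 2 without Bd21 control replicate 1 or Bd3-1 control replicate 4, 5 without Bd3-1 control replicate 3 and 8 with DESeq2. The median difference ranged from -1.58 without Bd3-1 control replicate 3 to -0.90 without Bd21 control replicate 2. In drought the summed counts were 32217, 30232 and 14773 in Bd21 and 28084, 9432 and 12923 in Bd3-1, which overlapped. No gene of the clique was called in drought, and the median there was -0.59.

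The clique named 4 in the study, whose function is not annotated in the sources used here, had a large median that came from 1 library. Of its 33 tested genes, 30 had higher fitted levels in Bd3-1 with a median difference of 1.37, but none was called. The summed normalized count was 5722, 9271 and 8481 in Bd21 and 5621, 9467, 7936, 3834 and 78408 in Bd3-1. Only Bd3-1 control replicate 5 was high. Without it the median was -0.04, with 15 genes positive and 18 negative. The chlorophyll and terpenoid clique had 26 of 30 genes with higher fitted levels in Bd3-1 and a median of 0.68, which fell to 0.33 without the same library, and none was called.

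The light harvesting clique also varied widely within Bd3-1. Its 48 genes in the copy of the list used here, which was shortened, had summed counts of 881618, 1132630 and 974881 in Bd21 and of 1810150, 1202600, 992635, 2051970 and 505676 in Bd3-1. Replicates 1 and 4 were above and replicate 5 below all Bd21 plants. No gene was called, and the median was 0.42. It ranged from 0.20 without Bd3-1 control replicate 4 to 0.63 without replicate 5, and was 0.25 without replicate 1. In drought the median was -0.34, with 42 of the 48 genes negative. These genes held 4.17% to 5.36% of all counts in the Bd21 libraries and 2.48% to 7.93% in the Bd3-1 libraries.

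The remaining cliques held few calls, while 2.51% of all genes tested were called. Lists this short would hold few calls at that share, so these counts show neither a lack nor an excess. In the ABA clique of Bd21 drought, also shortened, 2 of 48 genes were higher in Bd3-1 and the median was 0.08, within a range from 0.00 to 0.22 without single control libraries. They were Bradi3g39800, described above, and Bradi3g00890, which had 0, 13.7 and 0.832 in Bd21 and 165, 117, 86.2, 114 and 95.7 in Bd3-1 (difference 4.49, SE 1.11, edgeR adjusted p 0.0229). Neither was called without Bd21 control replicate 1, at adjusted p-values of 0.183 and 0.112. In the drought clique of both accessions 1 of 13 genes was called, Bradi4g42400, at 18, 28.7 and 66.6 in Bd21 and 7.14, 0, 7.72, 3.28 and 2.25 in Bd3-1 (difference -3.22, SE 0.68, edgeR adjusted p 0.00548). It lost its call without Bd21 control replicate 3 (adjusted p 0.105) and in the fit of the 8 control libraries alone (adjusted p 0.252). In the phenylpropanoid and wounding clique 1 of 36 tested genes was called, Bradi1g25150, at 3799, 2854 and 1918 in Bd21 and 1229, 1489, 1695, 846 and 1215 in Bd3-1 (difference -1.14, SE 0.23, edgeR adjusted p 0.00456). Its call was lost without Bd21 control replicate 1 (adjusted p 0.0877). None of the 26 genes of the circadian clock clique was called, and their differences ranged from -0.75 to 0.86 around a median of 0.03, which was between -0.06 and 0.06 without single control libraries.

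**Figure D3:**
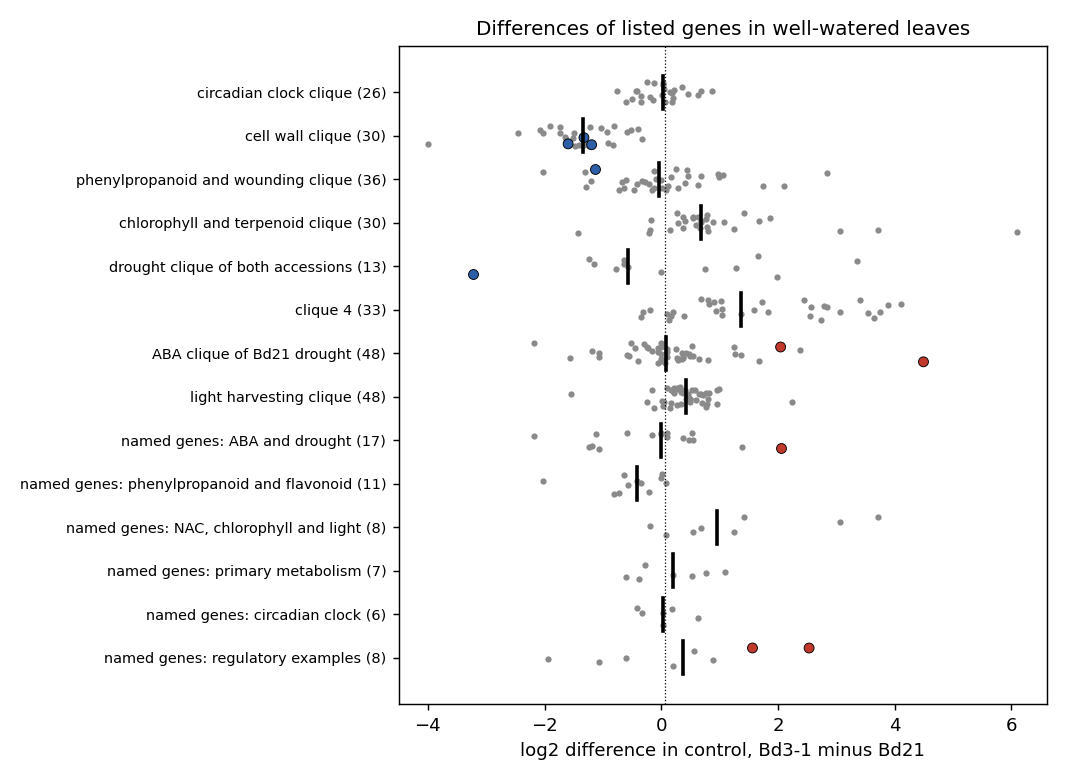
Log2 difference in control (x axis, Bd3-1 minus Bd21) of each tested gene of 14 lists (rows, number of genes in parentheses), with vertical jitter; black bars mark list medians, the dotted line marks the median of all genes at 0.07, and large points are called genes, red where higher in Bd3-1 and blue where higher in Bd21. All 30 genes of the cell wall clique lie below 0 and 30 of the 33 genes of clique 4 above it.

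Whether the accessions differed in the same way when water was withheld was tested in the drought libraries. There, 422 genes differed between Bd3-1 and Bd21 (1.86% of genes tested), 152 higher in Bd3-1 and 270 higher in Bd21. Of the 569 genes called in control, 562 differed in the same direction in drought, compared with 60.5% of all genes tested. The genes called in both conditions numbered 342, which is 60.1% of the control calls and 81% of the drought calls, and none of them changed direction. The control and drought comparisons share no library, although all groups share the estimate of the spread. Among the 384 called genes with reads in both accessions, the median size of the difference was 1.95 in control, and 1.63 in drought when measured in the same direction. These genes were chosen by their difference in control, which favours larger values there. The smaller median in drought therefore does not show a change with treatment.

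No gene passed the test for a difference between accessions that depended on treatment (G × E, edgeR adjusted p under 0.1, 0% of genes tested). DESeq2 called 8. An unadjusted p under 0.05 was reached by 770 of 22629 genes, fewer than that threshold lets through without any effect. With 3 to 5 plants in each group only large interactions could pass, so the lack of calls does not show that such genes are absent. The smallest edgeR adjusted p was 0.418, so none of the genes described next passed this test. For the peptidase gene Bradi5g18277 the difference was 1.89 in drought (SE 0.60, adjusted p 0.15) against 2.53 in control. For the stomatal movement gene Bradi3g39800 it was 1.09 in drought (SE 0.52, adjusted p 0.507) against 2.05 in control. Bradi4g42400 was at 18 to 66.6 in Bd21 control and 148 to 274 in Bd21 drought, whereas Bd3-1 had at most 7.72 in control and between 123 and 173 in drought. Its difference was -0.37 (SE 0.67) in drought.

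In the F1 hybrids both alleles are in the same leaf cells, so that a difference between them can reflect what acts in cis. The part of read alignment and of the single direction of the cross in such a difference was not tested here. For 3403 tested genes the alleles could be told apart, which requires that each parental library holds more than 1 count of its own allele and under 20% of the other. Of these, 161 differed between the accessions in control, 61 higher in Bd3-1 and 100 higher in Bd21. The mean log2 ratio of the Bd3-1 allele to the Bd21 allele over the 5 F1 control plants had the same sign as the parental difference for 152 of the 161 genes (94.4%), compared with 63.4% of the 3403 genes. For 98 of the 161 genes (60.9%) every plant had that sign, compared with 15.8% of the 3403.

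The median difference between the parents was 1.25 for the 61 genes higher in Bd3-1, and their median allele ratio in the F1 hybrids was 0.87. For the 100 genes higher in Bd21 these medians were -1.46 and -1.31. All these genes were chosen by their difference between the parents, which favours larger values there. The smaller F1 medians therefore do not show a change in the hybrids. Over all 3403 genes the median allele ratio was -0.04. The zinc transporter gene Bradi1g53680 was among the genes with a smaller ratio in the F1 hybrids, at -0.04 ± 0.28 (SD, n = 5) compared with 1.56 between the parents. For the allene oxide cyclase gene Bradi1g15840 the ratio was -0.62 ± 0.61 (SD, n = 5) compared with -0.61 between the parents. These ratios are descriptions and were not tested.

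**Figure D4:**
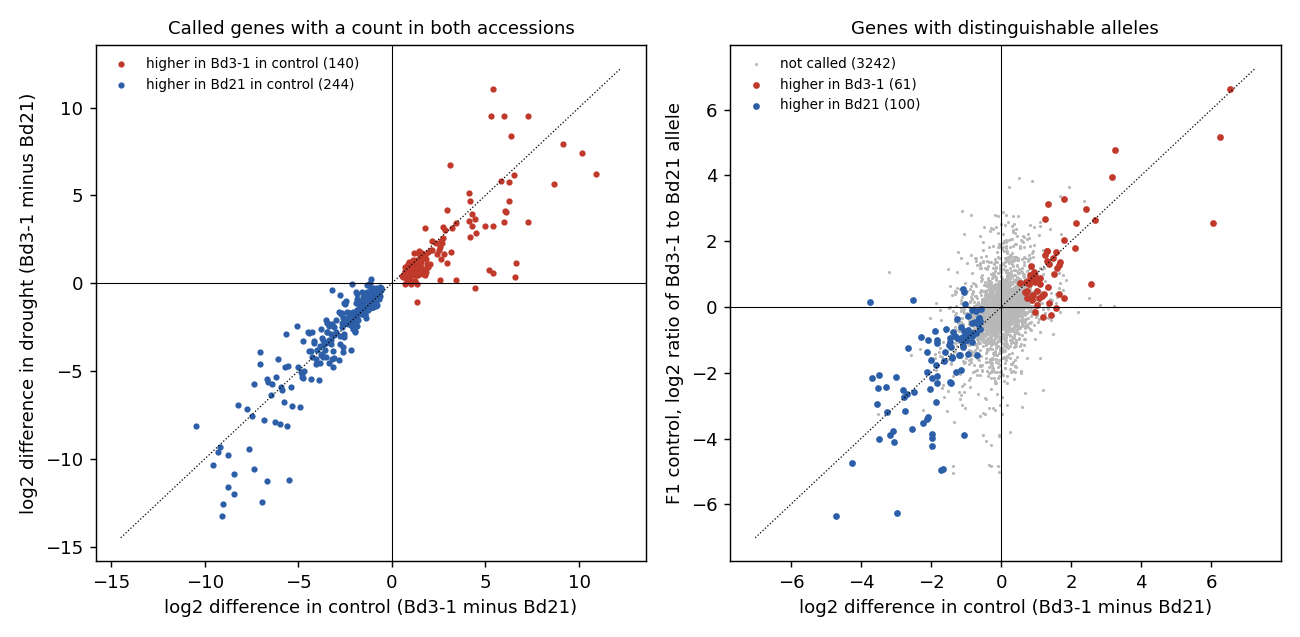
Left, log2 difference between accessions in drought (y axis) against that in control (x axis) for the 384 called genes with reads in both accessions. Right, mean log2 ratio of Bd3-1 to Bd21 allele counts over 5 F1 control plants (y axis) against the log2 difference in control (x axis) for 3403 genes with distinguishable alleles; red and blue mark genes called higher in Bd3-1 and in Bd21, and dotted lines mark equal values.

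Calls were more frequent among genes with sequence variants between the accessions that the allele counts could see. Of 13483 tested genes with equal allele counts in every library, 1.42% were called (exact 95% interval 1.23% to 1.64%). Of the 3403 allele-distinguishable genes 4.73% were called (4.04% to 5.50%), and of 5743 genes with unequal counts that did not meet that criterion 3.76% were called (3.28% to 4.29%). These intervals treat genes as independent, which they are not, and cover counting error only. Median expression also differed between these classes, with mean normalized counts of 217, 694 and 81.8, and its part in the result was not tested.

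The direction of the calls differed between the classes too. Of the 192 calls among equal-count genes, 157 (81.8%) were higher in Bd21, compared with 62.1% of the 161 and 56.9% of the 216 calls in the other classes. Of the 157 genes, 108 had no reads in any Bd3-1 control library. Allele-distinguishable genes had to have reads in every parental library, so that class could hold no such gene by definition. The shares of the classes are therefore not comparable, and the direction among genes with reads in both accessions was not tested by class. Of the 136 called genes without reads in any Bd3-1 control library, the other 28 had unequal counts. The variants of Bd3-1 were called by the authors from Bd3-1 RNA reads, and the part of a lack of such reads in the equal counts was not tested. The reference holds the genes annotated in Bd21, so that genes present only in Bd3-1 were not measured.

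Called genes were unevenly spread along the genome, as read from the order of gene identifiers. The share called was 1.94% on chromosome 1, 1.92% on chromosome 2, 2.45% on chromosome 3, 3.88% on chromosome 4 and 3.57% on chromosome 5. In 224 blocks of 100 consecutive tested genes the median number of calls was 1, 56 blocks had none, and the highest number was 23. That block, from Bradi4g10180 to Bradi4g11886, and the block before it together held 41 calls in 200 genes, 13 higher in Bd3-1 and 28 higher in Bd21. The 8 blocks with 10 or more calls held 110 of the 569 calls. The number of calls rose with the number of genes whose allele counts were unequal, from a mean of 0.465 calls in blocks with up to 20 such genes to 5.90 in blocks with more than 60. Across the 224 blocks, which share libraries and are not independent replicates, Spearman's rho was 0.68 and Pearson's r was 0.60.

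**Figure D5:**
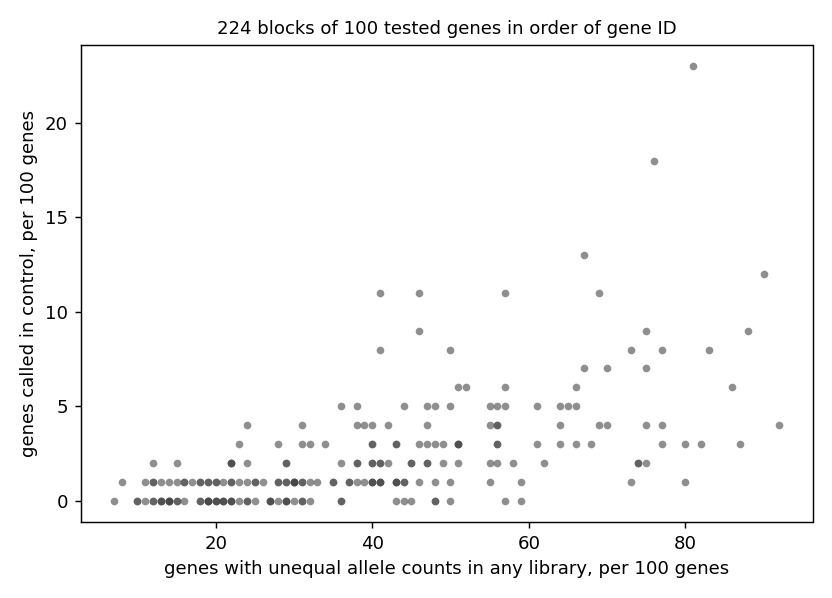
Number of genes called between Bd3-1 and Bd21 in control (y axis) against the number with unequal allele counts in any library (x axis) in 224 blocks of 100 tested genes in order of gene identifier; each point is a block. The highest block has 23 calls, and 56 blocks have none.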

How the data were processed

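Leaf RNA-seq libraries of 24 plants were deposited as estimated counts, not normalized, of a Bd21 and a Bd3-1 allele for 32439 genes, in 48 columns. The authors trimmed reads with Trimmomatic 0.38 and cutadapt 3.7, called Bd3-1 variants from RNA reads with STAR 2.6.1b and GATK 4.2.5.0 against the Bd21 v3.2 genome, aligned reads to a diploid transcriptome with Bowtie 1.2.2 and estimated the expected counts with emase. Reads shared by near-identical genes were divided by emase, so counts of such genes are uncertain.

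Both alleles were summed and rounded. Genes had to be counted above 0 in over 10 libraries and were tested with edgeR 4.0.16 (TMM, quasi-likelihood F-test, R 4.3.3), with 1 coefficient for each of 6 groups over 24 libraries. P-values were adjusted by Benjamini-Hochberg over all 22629 genes, at 0.05 (0.1 for G × E). Normalized counts are counts scaled by TMM to the mean effective library size. Alternatives were DESeq2 1.42.0, other factors, filters and subsets of libraries, a replicate block and leaving out libraries. Intervals were exact binomial at 95% (scipy 1.17.1, Python 3.11.15). A floor of 3 counts per library was used where a group had none. Pairs of libraries within a group differed by more than sampling noise, with a smallest chi-square of 17.4 per degree of freedom.

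Genes named are those with a role given by the study that passed the test or that a result turned on, the 2 largest differences in each direction among called genes with a mean of at least 10 and no overlap, and up to 2 called members of a list in each direction. The reference table names 31335 genes, and 0 of them matched an identifier of the files. The members and lists were chosen with earlier results of these data known.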

Additional observations from a re-analysis of the deposited data

Results flagged for a closer look

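In the Bd3-1 control plants, 73 genes, library measures and list sums were examined for a sample far from the other 4, and 9 were found. A rate of about 1 in 20 would hold for independent, normally distributed values. Genes and list sums here overlap, and their distribution was not tested, so no excess can be read from the 9. Bd3-1 control replicate 3 stood above the other plants in flavonoid genes: the flavanone 3-hydroxylase gene Bradi2g54090 was at a normalized count of 419 against at most 27.7, the flavonol MYB gene Bradi1g64687 at 282 against at most 83.4 and the flavonoid 3'-hydroxylase gene Bradi3g04750 at 962 against at most 385. The same plant had the highest level of the early light-induced protein gene Bradi1g55600, at 651 against at most 197, and of the summed phenylpropanoid and wounding clique, at 41317 against at most 32001.

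Bd3-1 control replicate 5 stood above the other plants in the summed clique 4 (78408 against at most 9467), the summed drought clique of both accessions (1846 against at most 830.0), the NAC gene Bradi1g17480 (7444 against at most 3569) and the galactosyltransferase gene Bradi2g56700 (139.6 against at most 44.2). Whether either plant came from the later planting cannot be told from the labels, and its part in these values was not tested.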

How the results depend on the processing

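The number of genes called in control was 936 with DESeq2, and within 1.5 times the main number of 569 in every other alternative: 447 to 576 without 1 control library, 390 to 552 without a pair of Bd3-1 control libraries, 435 with the replicate block, 430 in the fit of the 8 control libraries and 400 in that fit without Bd21 control replicate 1, an alternative chosen after seeing the data. Of the DESeq2 calls, 382 were higher in Bd3-1, compared with 189 of the main calls. In drought DESeq2 called 718 genes. The number of G × E genes was 8 with DESeq2, 1 without Bd3-1 control replicate 5 and between 0 and 3 without 1 or a pair of control libraries. Among 68 named genes under 28 alternatives no called direction reversed, 9 of 14 called genes lost the call in at least 1 alternative and 6 others gained it. Replicate numbers did not pair the plants: same-numbered plants of the accessions had correlations of deviations of 0.046, 0.023 and 0.041. Depth limits low genes most, since Bd21 control replicate 1 held only 8236476 counts.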
